A study of Mus musculus with 10 samples.

Results

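The mitochondrial ribosomal proteins were followed in liver RNA of mice with a changed Htra2 gene, which encodes HtrA2/Omi, a serine protease of mitochondria. Every gene whose symbol begins with Mrpl (named for the large subunit) or Mrps (named for the small subunit) and goes on with a number was taken, with no expression value used in the choice. This gave 78 of 19271 genes, of which 49 carried large and 29 small subunit names. The groups were 3 males homozygous for the S400D allele (S400D/S400D), 1 S400D/S400D female, 3 heterozygous males (S400D/WT) and 3 wild-type males (WT/WT). All 10 mice were C57BL6/N and 2 months old. S400D replaces a serine of the protease by an aspartate. The labels say nothing of litters, of collection times or of how the allele was made. They number the replicates without an origin, so p-values here describe the spread between these samples only, and part of it may be technical.

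Mitochondrial ribosomes translate the mRNAs of mitochondrial DNA, which encode subunits of the respiratory chain and of ATP synthase. Their rRNA is transcribed inside the organelle, whereas all of their proteins come from nuclear genes, are made in the cytosol and are imported. The small subunit binds the mRNA and holds the decoding centre. The large subunit forms the peptide bonds, and its exit tunnel opens at the inner membrane. Part of the proteins descend from bacterial ribosomal proteins, and the others were added during the evolution of mitochondria.

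Each library held 16240441 to 17264289 expected counts (estimated reads per transcript). All 78 genes passed the filter on low counts, as did 12427 genes in all. Htra2 stood at 14.9, 15.5 and 14.4 CPM (counts scaled to library size) in S400D/S400D males, at 13.7 CPM in the S400D/S400D female, at 15.5, 16.7 and 15.6 CPM in S400D/WT males, and at 17.1, 12.3 and 12.5 CPM in WT/WT males; the allele changes the protein, so these levels check no label. The libraries differed in their circadian state and in their mean transcript length, and those values stand beside the results they move with. The defining hepatocyte markers were all detected: 10 of 10 passed the filter, and their summed level was 133000 to 148000 CPM in S400D/S400D males, 122000 CPM in the female, 88900 to 111000 CPM in S400D/WT males and 110000 to 124000 CPM in WT/WT males.

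The order of the members within a wild-type liver was read from TPM (transcript levels per length, scaled to a fixed sum). Mrps21 was the highest on this scale, at 188 ± 18.6 TPM (SD, n = 3), and Mrps25 the lowest, at 2.41 ± 0.453 TPM, a range of 77.9-fold. TPM divides by effective length, which was 212 bases for Mrps21 and 5799 bases for Mrps25, so the order depends on it. Without that division the WT/WT means were 30.4 CPM for Mrps21, 10.7 CPM for Mrps25 and 83.0 CPM for Mrpl12. Most genes lay much closer together: 65 of the 78 were between 10 and 100 TPM, 9 were above and 4 below. Next to Mrps21 came the large subunit genes Mrpl14 (159 ± 23.5 TPM), Mrpl52 (156 ± 18.7 TPM) and Mrpl12 (154 ± 21.5 TPM). Mrpl12 forms the stalk that contacts translation factors and is also known to bind the mitochondrial RNA polymerase. The small subunit genes that followed Mrps21 were Mrps18c (118 ± 22.4 TPM) and Mrps16 (82.4 ± 7.10 TPM). At the low end of the large subunit were Mrpl17 (7.43 ± 1.11 TPM), Mrpl35 (7.25 ± 1.14 TPM) and Mrpl19 (3.49 ± 0.239 TPM), and above Mrps25 in the small subunit stood Mrps30 (19.5 ± 2.65 TPM) and Mrps14 (19.6 ± 2.23 TPM). Of the 77 pairs of neighbours in this order, 6 had ranges over the 3 animals that did not overlap, so most neighbours did not differ beyond their spread.

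The subunits had like levels in wild-type liver, with a median of 41.0 TPM for the large and 39.0 TPM for the small subunit genes. This was above the median of all genes tested (7.54 TPM) and below those of the cytosolic ribosomal proteins (512 TPM) and of the nuclear subunits of oxidative phosphorylation (305 TPM). Genes for the mitochondrial translation factors (18.5 TPM), for the assembly of the mitochondrial ribosome (12.0 TPM) and for the mitochondrial aminoacyl-tRNA synthetases and related enzymes (10.2 TPM) had lower medians.

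**Figure D1:**
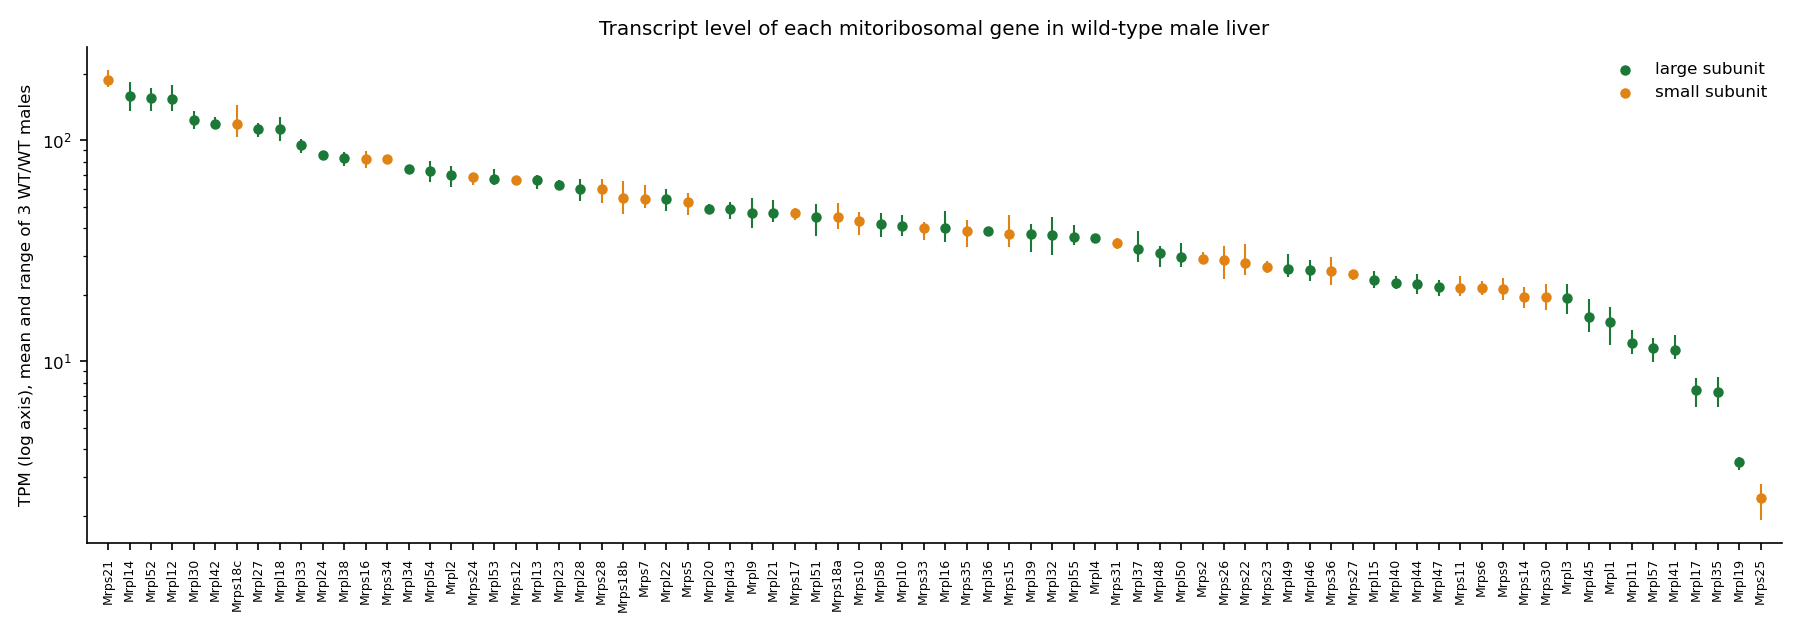
Level of each mitochondrial ribosomal protein gene in WT/WT male liver, in TPM on a log axis, ordered from highest to lowest; points are means and lines the range of 3 animals, green for large and orange for small subunit names. Mrps21 stands at 188 TPM and Mrps25 at 2.41 TPM, with the genes of both subunits mixed along the order.

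In S400D/S400D males most genes of both subunits had slightly lower values than in WT/WT males on the CPM scale, by an amount that moved with the scaling and with transcript length. Of the large subunit genes, 40 of 49 had a negative log2 fold change, with a median of -0.16 and a range of -0.54 to 0.20. Of the small subunit genes, 27 of 29 were negative, with a median of -0.17 and a range of -0.58 to 0.12. Over all genes tested the median was 0.00 and 49.3% were negative. With the trend on transcript length removed the medians of the members were -0.05 (large) and -0.04 (small), with a clock index (log2 CPM of Arntl minus Dbp) as a covariate they were -0.09 and -0.12, and on log2(TPM + 1) both were 0.00, where the median of all genes was 0.14. Of all genes in the shortest of 5 length classes, which holds 60 of the members, 68.5% were negative as well. No single member passed an adjusted p of 0.05 in edgeR's quasi-likelihood test, where the lowest adjusted p of a member was 0.178 (Mrpl55) and 0% of all genes passed. At an unadjusted p under 0.05 there were 12 large and 8 small subunit genes, all 20 of them lower in S400D/S400D males; of all genes 8.08% were lower at that level and 6.82% higher. DESeq2 called 307 of the 12427 genes tested in this comparison and limma-voom 0, with 0 of the 78 members among them in either. Without WT/WT male 1 the large subunit median was -0.10.

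The animals were also compared gene by gene without a model, in CPM scaled by TMM. In 31 of the 78 members (39.7%), 17 of the large and 14 of the small subunit, each S400D/S400D male lay below each WT/WT male, where 10.9% of all genes did so. In 0 members did the S400D/S400D males lie above all WT/WT males, where 9.74% of all genes did. Set against all 6 other males at once, the 3 S400D/S400D males were lowest in 15 large and 12 small subunit genes, 34.6% of the members, against 6.12% of all genes; these 27 genes include Mrpl12, Mrpl13, Mrpl27, Mrpl48, Mrpl55, Mrps10, Mrps15, Mrps16, Mrps21 and Mrps28. They were above all 6 in 0 members, against 4.59% of all genes. The count of separated genes depended on the scaling. With library size alone and likewise in FPKM, 15 members were lower without overlap, against 7.24% and 7.34% of all genes, and 1 was higher, against 12.2% and 11.8%. In TPM 3 members (3.85%) were lower without overlap, against 3.64% of all genes; they were Mrpl54, Mrpl55 and Mrps21, all among the 31. Mrpl4, Mrpl34 and Mrpl36 were higher without overlap in TPM, against 19.2% of all genes.

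**Figure D2:**
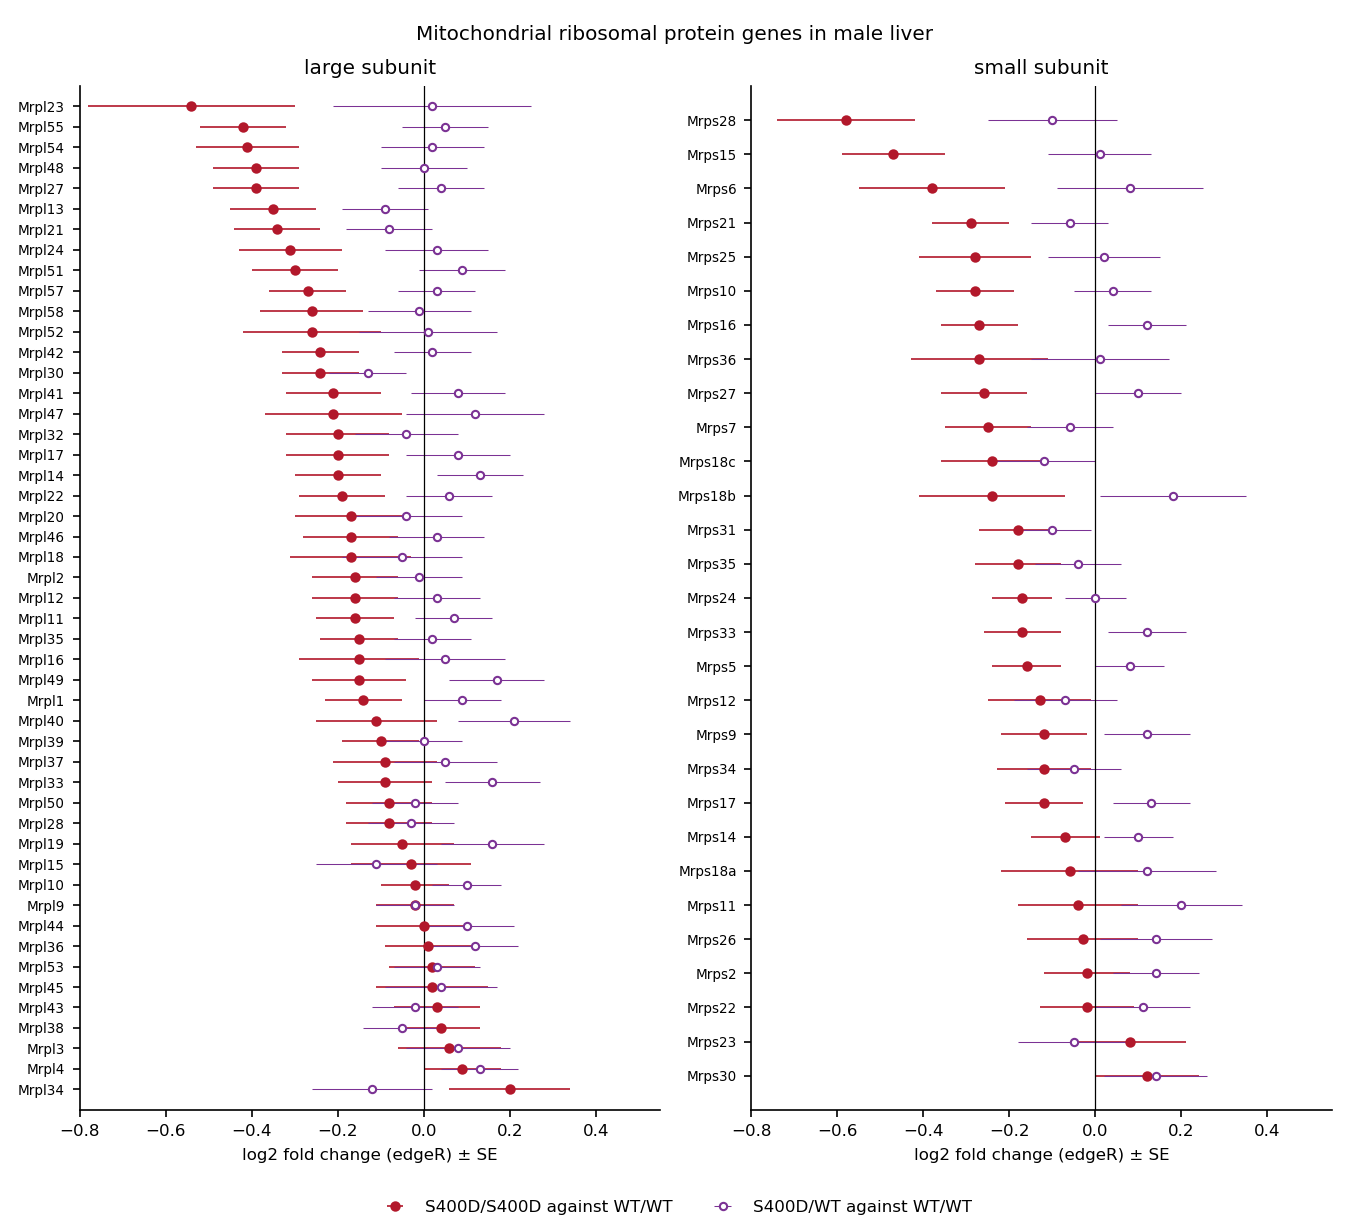
Log2 fold change of each gene with its standard error (edgeR), large subunit at the left and small subunit at the right, ordered by the fold change of S400D/S400D against WT/WT males. Filled red points (S400D/S400D against WT/WT) lie left of 0 for 40 of 49 large and 27 of 29 small subunit genes, while open purple points (S400D/WT against WT/WT) lie left of 0 for 15 and 10.

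Summed over the 49 genes, the large subunit reached 1385, 1349 and 1356 CPM in S400D/S400D males, 1449 CPM in the S400D/S400D female, 1594, 1474 and 1520 CPM in S400D/WT males and 1539, 1503 and 1457 CPM in WT/WT males. Summed over the 29 genes, the small subunit reached 693.8, 671.7 and 648.6 CPM in S400D/S400D males, 741.2 CPM in the female, 805.1, 747.8 and 779.1 CPM in S400D/WT males and 766.0, 764.6 and 726.4 CPM in WT/WT males. All 3 S400D/S400D males were below all 6 other males in both sums. The female lay between the groups in the large subunit and within the WT/WT range in the small subunit. Both subunits kept their proportion, with a ratio of summed CPM of large to small subunit between 1.95 and 2.09 in the 10 libraries. In bulk tissue, fewer cells of a type and less RNA per cell cannot be told apart.

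The separation of the sums depended on the scaling. Scaled to library size alone, the large subunit summed to 1389, 1394 and 1324 CPM in S400D/S400D males and to 1592, 1347 and 1412 CPM in WT/WT males, so these groups overlapped. In TPM it summed to 2591, 2633 and 2541 in S400D/S400D males, 2589, 2638 and 2866 in S400D/WT males and 2851, 2371 and 2609 in WT/WT males, which overlapped as well. In deposited FPKM the large subunit sums of S400D/S400D males (1774, 1808 and 1761) were below those of S400D/WT males (2029, 2031 and 2103) and WT/WT males (2084, 1823 and 1895). The medians of the fold changes were -0.11 for both subunits with library size alone and -0.10 (large) and -0.11 (small) on log2(FPKM + 1). On log2(TPM + 1), a scale added after the data were seen, they were 0.00 for both, with 24 of 49 large and 15 of 29 small subunit genes negative, while the median of all genes was 0.14.

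Measured library by library, the median log2 deviation of the large subunit genes from the WT/WT mean was -0.14, -0.16 and -0.16 in the S400D/S400D males, -0.08 in the female, 0.10, 0.01 and 0.04 in the S400D/WT males, and 0.05, 0.01 and -0.04 in the WT/WT males. For the small subunit it was -0.15, -0.16 and -0.18 in the S400D/S400D males, -0.07 in the female, 0.09, 0.00 and 0.07 in the S400D/WT males, and 0.02, 0.02 and -0.03 in the WT/WT males. On this scale the 3 S400D/S400D males were close to each other and apart from all other males.

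The circadian state of the libraries separated the S400D/S400D males from the WT/WT males, but the female and 1 S400D/WT male did not follow their genotype. Expressed as the log2 CPM of Arntl, which drives the clock, minus that of Dbp, one of its output genes, it was 1.88, 1.01 and 4.79 in S400D/S400D males, -6.91 in the female, -7.59, 2.36 and -5.28 in S400D/WT males and -5.54, -5.85 and -5.18 in WT/WT males. S400D/WT male 2, whose clock value was that of an S400D/S400D male, had member medians of 0.01 (large) and 0.00 (small). The female, whose clock value was that of a WT/WT male, had -0.08 and -0.07. With this index as a covariate the medians of S400D/S400D against WT/WT males were -0.09 for the large and -0.12 for the small subunit. The index did not overlap between these groups, so clock state and genotype cannot be told apart in them. The covariate leaned mostly on the S400D/WT males, of which male 2 stood apart.

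**Figure D3:**
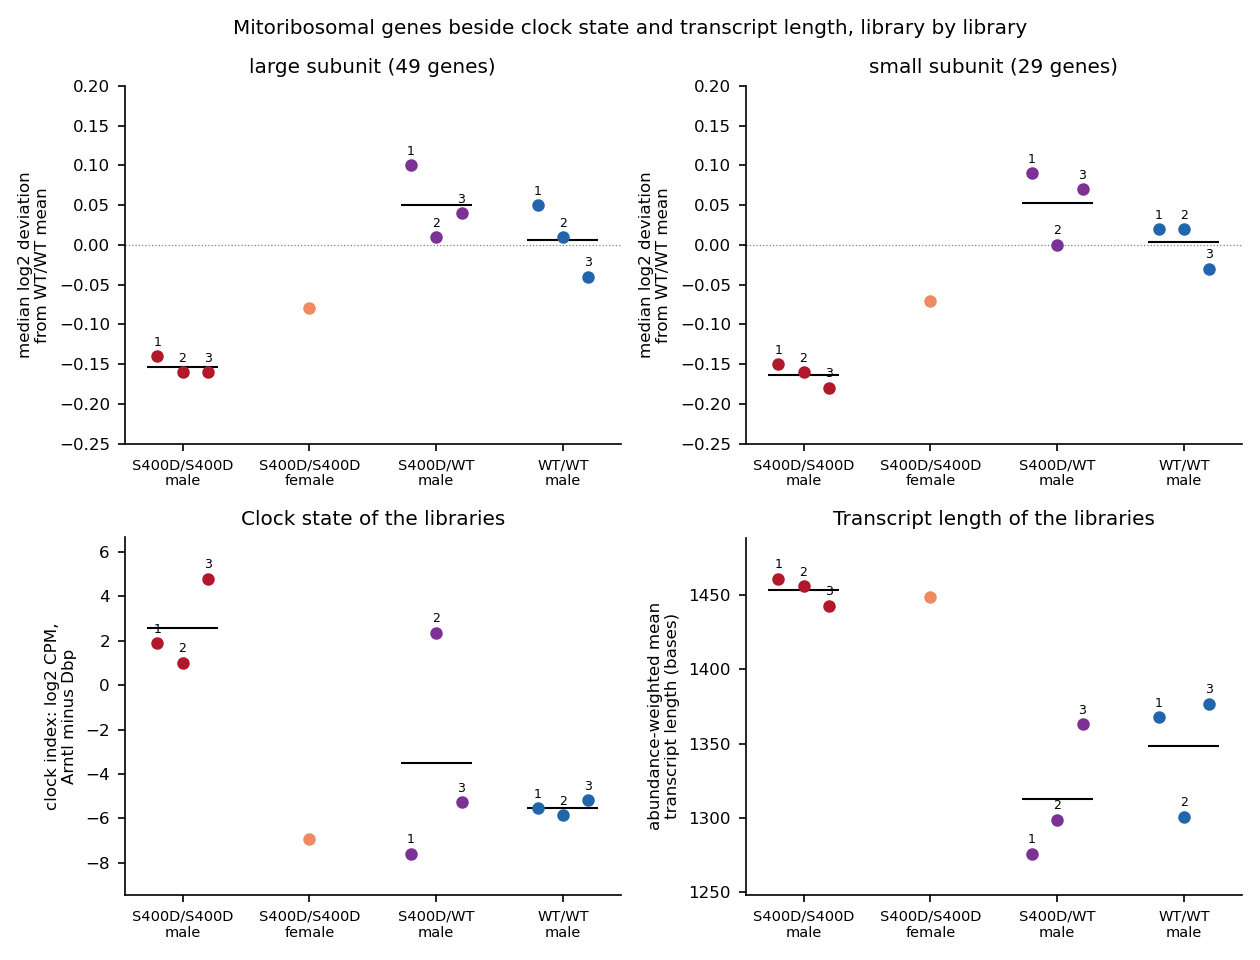
Each point is 1 library, numbered by replicate, with bars at the mean of the males of a genotype. The upper panels give the median log2 deviation of the 49 large and 29 small subunit genes from the WT/WT mean, the lower panels the clock index (log2 CPM of Arntl minus Dbp) and the abundance-weighted mean transcript length in bases; the S400D/S400D males sit between -0.14 and -0.18 in the upper panels, while S400D/WT male 2, with a clock index of 2.36, sits at 0.01 and 0.00.

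Among the large subunit genes, Mrpl55 had the smallest p. It is the counterpart of a bacterial ribosomal protein despite its high number (gene 67212, chromosome 11, 59202486 to 59206134; positions are those of GRCm38.p6 in GENCODE M21). It stood at 14.2, 13.9 and 14.6 CPM in S400D/S400D males, 19.6 CPM in the female, 20.6, 20.8 and 17.9 CPM in S400D/WT males and 20.0, 19.5 and 17.5 CPM in WT/WT males. The S400D/S400D males lay together below all other animals, and the female lay among the WT/WT males. The log2 fold change against WT/WT was -0.42 (SE 0.10, adjusted p = 0.178).

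Mrpl48 (gene 52443, chromosome 7, 100545751 to 100608301) sits in the central protuberance of the large subunit. It had 17.2, 19.7 and 16.8 CPM in S400D/S400D males, 23.3 CPM in the female, 24.9, 21.5 and 24.2 CPM in S400D/WT males and 23.5, 22.5 and 24.2 CPM in WT/WT males, with the S400D/S400D males lowest and the female in the WT/WT range. Its log2 fold change was -0.39 (SE 0.10, adjusted p = 0.206). The lower level was seen in the transcripts XM_030242767, with 6.53 ± 2.08 CPM of library size alone in S400D/S400D and 11 ± 0.579 in WT/WT males (SD, n = 3), and NM_198831, with 5.99 ± 0.933 and 8.21 ± 0.733. The third, XM_006508021, averaged 5.49 ± 3.35 and 3.47 ± 1.42 CPM in these groups, which overlapped. The exons of Mrpl48 overlap those of Rab6a on the other strand.

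Mrpl27 (gene 94064, chromosome 11, 94653767 to 94660089), whose bacterial counterpart reaches towards the peptidyl transferase centre, had 27.1, 32.7 and 31.4 CPM in S400D/S400D males, 38.9 CPM in the female, 41.4, 37.5 and 43.9 CPM in S400D/WT males and 39.8, 40.5 and 38.9 CPM in WT/WT males. The S400D/S400D males did not overlap any other group, and the fold change was -0.39 (SE 0.10, adjusted p = 0.207). Mrpl13 (gene 68537, chromosome 15, 55534094 to 55557748), of bacterial descent, had 19.3, 21.3 and 20.5 CPM in S400D/S400D males, 24.5 CPM in the female, 26.6, 22.1 and 24.7 CPM in S400D/WT males and 24.8, 26.2 and 26.6 CPM in WT/WT males. Here too the S400D/S400D males were the lowest, with a fold change of -0.35 (SE 0.10, adjusted p = 0.207). Exons of Mrpl27 and Mrpl13 overlap those of Eme1 and Mtbp on the other strand; no source used here gives whether the counting used strand, so reads of such pairs cannot be told apart.

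The other large subunit genes with the smallest p were Mrpl54, Mrpl21, Mrpl51, Mrpl57, Mrpl42 and Mrpl30. Mrpl54 averaged 13.2 ± 0.765 CPM in S400D/S400D and 17.4 ± 2.05 CPM in WT/WT males, and Mrpl21 15.7 ± 1.28 and 19.8 ± 1.81 CPM (SD, n = 3 each). Mrpl51, one of the proteins with no bacterial counterpart, averaged 35.0 ± 0.878 CPM in S400D/S400D and 42.8 ± 3.20 CPM in WT/WT males. For Mrpl57, also particular to mitochondria, the means were 15.1 ± 1.17 and 18.2 ± 0.503 CPM. Fold changes of these 6 genes ran from -0.41 (Mrpl54) to -0.24 (Mrpl42 and Mrpl30), with adjusted p between 0.226 and 0.274 in edgeR, and in each the S400D/S400D males lay below all WT/WT males.

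The lowest fold change of the large subunit was that of Mrpl23, named here after its value was seen, and 1 animal stood apart in it. It had 7.90, 16.5 and 15.3 CPM in S400D/S400D males, 16.2 CPM in the female, 20.3, 18.0 and 20.0 CPM in S400D/WT males and 18.7, 20.8 and 18.1 CPM in WT/WT males. S400D/S400D male 1 was far below the other S400D/S400D males, which were themselves below all S400D/WT and WT/WT males. The fold change was -0.54 with a large error (SE 0.24, adjusted p = 0.332). In bacteria the counterpart of Mrpl23 lies at the exit of the peptide tunnel.

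In the small subunit, Mrps15 (gene 66407, chromosome 4, 126046925 to 126055532), whose bacterial counterpart binds the rRNA early in assembly, had 12.8, 14.6 and 14.0 CPM in S400D/S400D males, 16.5 CPM in the female, 20.5, 18.9 and 18.5 CPM in S400D/WT males and 21.7, 18.6 and 16.9 CPM in WT/WT males. The S400D/S400D males were lowest and the female was next, just under the lowest WT/WT male. The fold change was -0.47 (SE 0.12, adjusted p = 0.206).

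Mrps28 (gene 66230, chromosome 3, 8802146 to 8923918) had the lowest fold change of all members, -0.58 (SE 0.16, adjusted p = 0.207). Its levels were 11.2, 16.7 and 13.5 CPM in S400D/S400D males, 15.3 CPM in the female, 21.9, 17.8 and 18.3 CPM in S400D/WT males and 19.6, 19.8 and 22.4 CPM in WT/WT males. The S400D/S400D animals of both sexes were below all others, but they spread more widely than for Mrps15.

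Mrps21, the member with the highest TPM in wild type, had 24.6, 23.7 and 26.3 CPM in S400D/S400D males and 24.7 CPM in the female. It had 27.7, 29.1 and 31.0 CPM in S400D/WT males and 31.8, 30.8 and 28.6 CPM in WT/WT males. All 4 S400D/S400D animals were below all others, with a fold change of -0.29 in males (SE 0.09, adjusted p = 0.242). Mrps16 had 18.6, 21.4 and 19.9 CPM in S400D/S400D males, 25.8 CPM in the female, 24.6, 27.0 and 26.5 CPM in S400D/WT males and 24.3, 24.2 and 23.5 CPM in WT/WT males. The males separated, with a fold change of -0.27 (SE 0.09, adjusted p = 0.266), while the female stood above all WT/WT males.

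Mrps10, Mrps27, Mrps7 and Mrps6 completed the small subunit genes at an unadjusted p under 0.05. Mrps27, a pentatricopeptide repeat protein, averaged 25.3 ± 2.13 CPM in S400D/S400D and 30.2 ± 1.53 CPM in WT/WT males (SD, n = 3 each), a fold change of -0.26 (adjusted p = 0.291). Mrps10 averaged 21.1 ± 1.70 and 25.6 ± 0.599 CPM. Mrps7, whose bacterial counterpart binds the rRNA of the subunit's head, averaged 51.9 ± 2.04 and 61.4 ± 4.77 CPM. Mrps6, also of bacterial descent, averaged 6.39 ± 0.952 and 8.30 ± 0.679 CPM. In all 4 genes the S400D/S400D males lay below the WT/WT males.

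**Figure D4:**
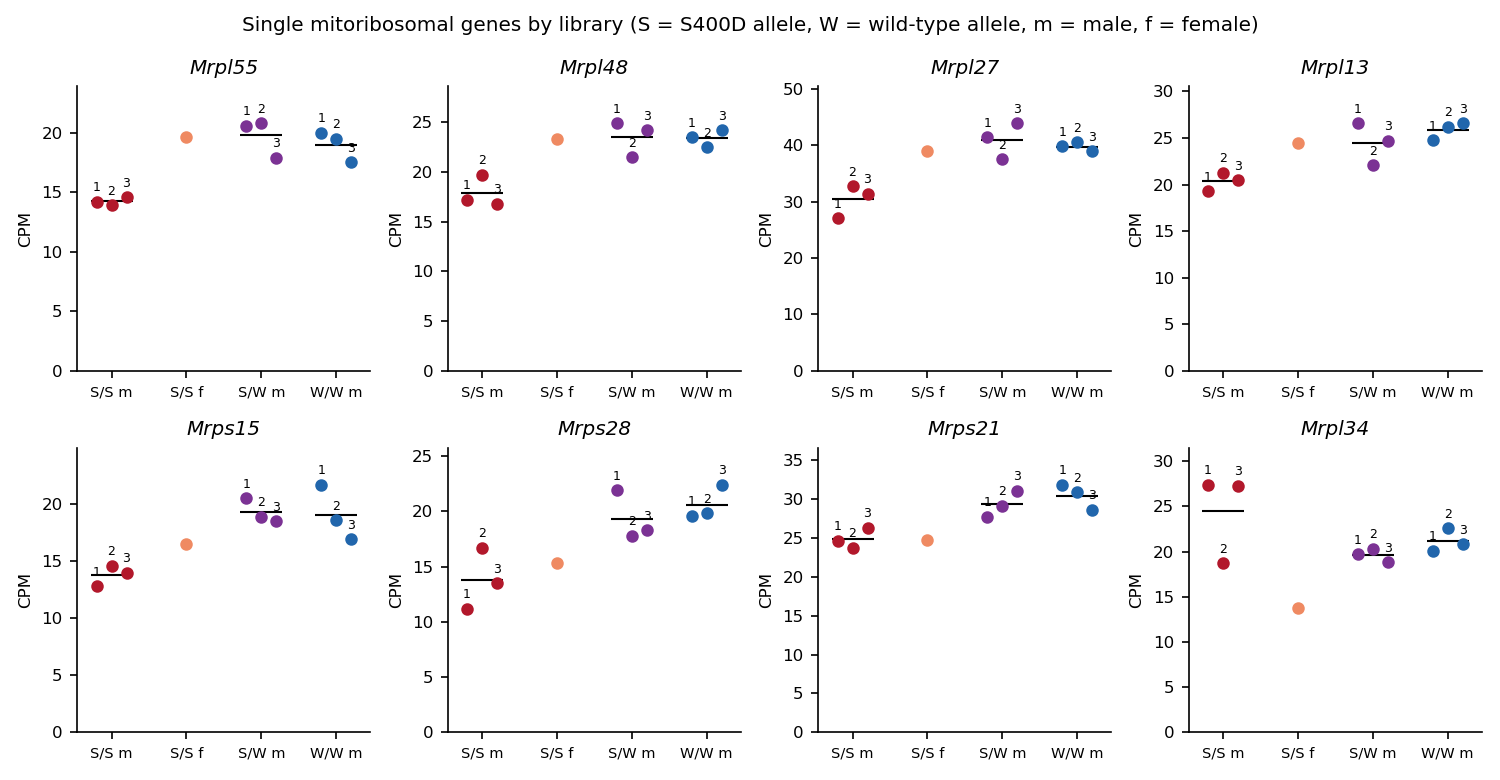
CPM of 8 genes in each library, numbered by replicate, with bars at the mean of each group of males and axes starting at 0; from left to right S400D/S400D males, the S400D/S400D female, S400D/WT males and WT/WT males. In all genes but Mrpl34 the S400D/S400D males lie below all 6 other males, and the female's place changes from gene to gene.

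A few members did not share the direction. Mrpl34, of bacterial descent, had the highest fold change, 0.20 (SE 0.14, adjusted p = 0.514), with 27.4, 18.7 and 27.3 CPM in S400D/S400D males, 13.8 CPM in the female, 19.7, 20.3 and 18.8 CPM in S400D/WT males and 20.1, 22.6 and 20.8 CPM in WT/WT males. Its S400D/S400D animals held both its highest and its lowest values. Mrpl4, whose bacterial counterpart lines the exit tunnel, averaged 30.4 ± 1.70 CPM in S400D/S400D and 28.6 ± 1.60 CPM in WT/WT males, with overlap (fold change 0.09). Mrpl3, whose counterpart lies near the peptidyl transferase centre, averaged 20.9 ± 2.41 and 20.1 ± 1.11 CPM (0.06). In the small subunit the positive members were Mrps30, at 21.6 ± 1.73 and 19.7 ± 2.54 CPM (0.12), and Mrps23, at 23.1 ± 3.20 and 21.7 ± 0.932 CPM (0.08). Without S400D/S400D male 1 the fold changes of Mrpl3 and Mrps23 were both -0.01.

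Names and structure do not always match. Mrps30 and Mrps18a are found in the large subunit of the mammalian ribosome; moved there, 41 of 51 large and 26 of 27 small subunit genes were negative, with medians of -0.16 and -0.18. The other Mrps18 paralogues belong to the small subunit. Mrps18a averaged 19.5 ± 2.13 CPM in S400D/S400D and 20.2 ± 1.57 CPM in WT/WT males, Mrps18b 30.3 ± 6.25 and 35.6 ± 5.48 CPM, and Mrps18c 17.5 ± 1.42 and 20.6 ± 2.85 CPM, and all 3 overlapped between the groups. Their fold changes were -0.06, -0.24 and -0.24. Mrps36, which was kept among the 27, is known as a component of the alpha-ketoglutarate dehydrogenase complex. It averaged 7.20 ± 0.419 and 8.69 ± 1.49 CPM, a fold change of -0.27 (adjusted p = 0.439). Mrpl58, a peptidyl-tRNA hydrolase built into the large subunit, averaged 21.8 ± 2.20 and 26.1 ± 0.597 CPM, a fold change of -0.26, and its S400D/S400D males were below all WT/WT males. Mrpl12 averaged 74.4 ± 0.950 and 83.0 ± 5.73 CPM, a fold change of -0.16 (adjusted p = 0.452).

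Members with and without a bacterial counterpart had like values. Of the 48 proteins of bacterial descent, 44 were negative with a median of -0.16, and of the 30 particular to mitochondria 23 were negative, also with a median of -0.16. In the comparison with S400D/WT males the medians were -0.22 and -0.18.

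Promoters are shown for 4 members named above as lower in the S400D/S400D males. They were picked for having more than 1 match to motifs of factors known to drive nuclear genes for mitochondria. Of the 78 members, 69 had a promoter in the RefSeq table (GRCm38.p6), with 75 windows of 300 bases in all, from 250 before to 50 after the start. The motifs were searched on both strands; the first base of a match is counted from the start site. Capitals mark the matches. Mrpl57 (chr14:57825989-57826288, plus strand) has the NRF1 motif (GCGC and TGCGC with 1 base between them) at -57 and the ETS motif CCGGAAG at 5. Mrps21 (chr3:95871465-95871764, minus strand) has the NRF1 motif at -91 and the ETS motif at 19. Mrps16 (chr14:20393441-20393740, minus strand) has the ETS motif at -74 and at 25. Its other promoter window (chr14:20393585-20393884) has no NRF1, ETS or YY1 match and is not shown. Mrps27 (chr13:99344536-99344835, plus strand) has the ETS motif at -48 and the YY1 motif AAGATGGC at 15.
Mrpl57: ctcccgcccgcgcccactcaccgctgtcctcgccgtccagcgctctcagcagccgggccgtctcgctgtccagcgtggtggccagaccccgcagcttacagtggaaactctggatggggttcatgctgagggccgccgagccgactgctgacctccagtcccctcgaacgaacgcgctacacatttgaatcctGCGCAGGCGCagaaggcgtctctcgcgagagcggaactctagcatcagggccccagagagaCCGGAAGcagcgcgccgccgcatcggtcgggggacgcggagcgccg
Mrps21: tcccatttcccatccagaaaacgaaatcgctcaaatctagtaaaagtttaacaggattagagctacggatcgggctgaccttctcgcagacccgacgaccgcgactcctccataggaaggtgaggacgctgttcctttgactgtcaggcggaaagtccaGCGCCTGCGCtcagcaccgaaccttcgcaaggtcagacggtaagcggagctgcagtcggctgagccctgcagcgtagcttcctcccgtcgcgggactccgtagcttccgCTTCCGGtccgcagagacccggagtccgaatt
Mrps16: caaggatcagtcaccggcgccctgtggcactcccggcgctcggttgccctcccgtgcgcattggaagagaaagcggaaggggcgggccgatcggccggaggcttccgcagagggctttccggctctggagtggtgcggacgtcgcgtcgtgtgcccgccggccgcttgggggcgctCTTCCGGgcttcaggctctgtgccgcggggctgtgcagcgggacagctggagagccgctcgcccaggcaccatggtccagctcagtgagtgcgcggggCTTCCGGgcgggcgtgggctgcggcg
Mrps27: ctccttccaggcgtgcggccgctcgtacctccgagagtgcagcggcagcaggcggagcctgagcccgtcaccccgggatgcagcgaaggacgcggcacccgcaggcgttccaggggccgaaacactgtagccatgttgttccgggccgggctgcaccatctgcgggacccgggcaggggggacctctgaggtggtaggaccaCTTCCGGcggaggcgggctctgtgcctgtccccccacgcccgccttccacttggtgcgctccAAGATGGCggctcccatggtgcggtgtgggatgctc

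The ETS motif was present in 26 of the 75 member promoters (34.7%), against 8.86% of all 32851 promoters of that length. The NRF1 motif was present in 17.3% against 4.6%, and the YY1 motif in 16% against 2.75%. Other gene groups of like function held these letters often as well. Promoters of cytosolic ribosomal protein genes held the ETS motif in 32.5%, NRF1 in 6.49% and YY1 in 10.4%, and those of nuclear subunits of oxidative phosphorylation in 23%, 24.3% and 13.5%. TATAAA was present in 6.67% of member promoters against 13.6%, and the cAMP response element TGACGTCA in 2.67% against 1.79%. The E-box CACGTG, the site of clock factors, was present in 9.33% against 7.15% of promoters, where a gene can have several windows. Counted by gene, it was present in 5 of 69 members against 2187 of 27025 genes. The windows of the members were richer in G and C, with a median of 58.7% against 52.7%. The fold changes in S400D/S400D against WT/WT males had like medians with and without these letters. The median was -0.20 in the 26 genes with and -0.16 in the 43 genes without the ETS motif, -0.16 with and -0.17 without NRF1, and -0.15 with and -0.17 without YY1.

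The members lie on 17 chromosomes, with 11 on chromosome 11 and 7 on chromosome 6, which carries Htra2. Mrpl53, 54 kb from Htra2, averaged 18.0 ± 1.84 CPM in S400D/S400D and 17.6 ± 1.18 CPM in WT/WT males (fold change 0.02). Of the 78 members, 19 (24.4%) start within 1000 bases of a protein-coding gene read in the other direction, against 7.22% of 21938 protein-coding genes. Among these are Mrpl57, which starts 49 bases from Ska3, Mrps27, 81 bases from Ptcd2, and Mrpl30, 66 bases from Mitd1. Of the 18 such pairs in which both genes were tested, 17 members and 11 partners had a negative fold change, with medians of -0.16 and -0.11.

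The members are short transcripts, with a median effective length of 793 bases against 2624 for all genes tested, and length moved with the fold change of all genes. The abundance-weighted mean transcript length was 1461, 1456 and 1443 bases in S400D/S400D males, 1449 in the female, 1276, 1299 and 1363 in S400D/WT males and 1368, 1301 and 1377 in WT/WT males, so the S400D/S400D animals had the longest. Across 12416 genes the rank correlation of length with the fold change of S400D/S400D against WT/WT males was 0.25 (genes share their libraries and are not independent). With the genes cut by length into 5 parts of equal size, the shortest part, 67 to 1397 bases, had 68.5% of all genes negative with a median of -0.12, and of the 60 members there 50 were negative with a median of -0.17. In the next part, to 2196 bases, the 11 members had a median of -0.10 against -0.03 for all genes. The 7 longer members included Mrps25 at 5799 bases (-0.28), Mrpl17 at 6439 bases (-0.20) and Mrpl35 at 3422 bases (-0.15), and also Mrpl19 at 4742 bases (-0.05) and Mrpl15 at 2951 bases (-0.03), which were near 0. The medians of all genes in the 3 longer parts were 0.02, 0.06 and 0.10. With a smooth trend on length removed from each library, the medians of the members moved to -0.05 (large) and -0.04 (small), with 35 of 49 and 20 of 29 negative.

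**Figure D5:**
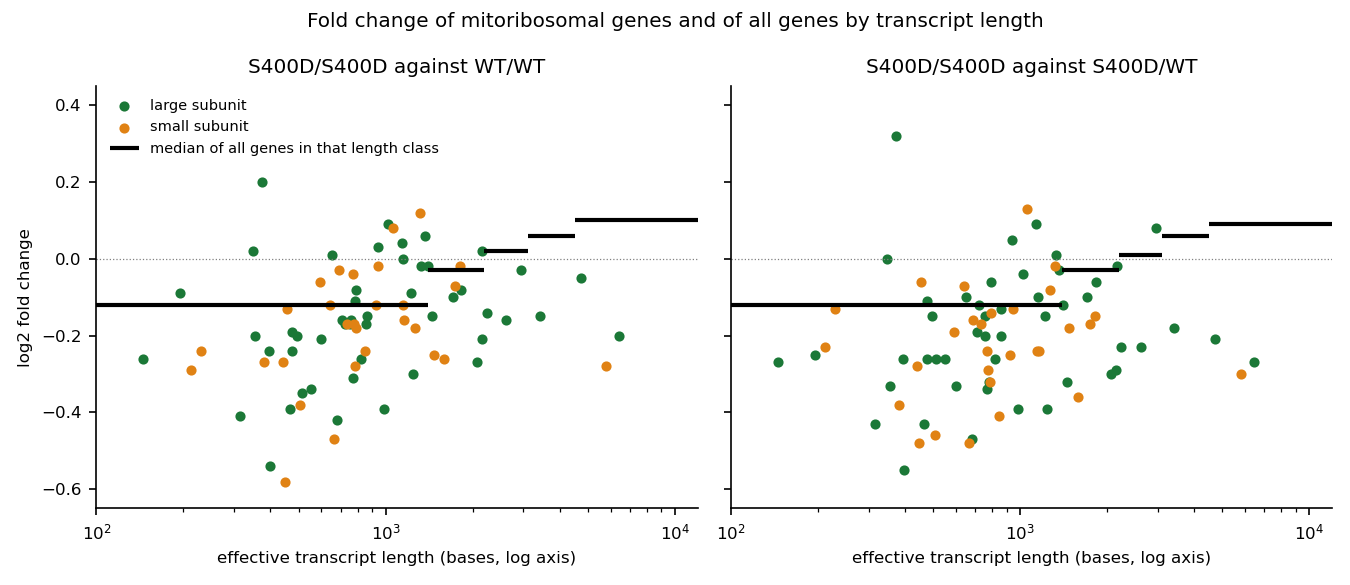
Log2 fold change of each member (green large, orange small subunit) against effective transcript length in bases on a log axis, for S400D/S400D against WT/WT males (left) and against S400D/WT males (right). Black lines are the medians of all genes in 5 length classes, from -0.12 in the shortest to 0.10 (left) and 0.09 (right) in the longest; the 7 members longer than 2196 bases lie below the line of their class, apart from Mrpl15 (0.08) at the right.

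In heterozygous males the members had values slightly above those of wild type, within the spread of the animals. Against WT/WT males, 15 of 49 large and 10 of 29 small subunit genes were negative, with medians of 0.03 and 0.08, where 48.4% of all genes were negative and their median was 0.01. In edgeR 0 members passed (lowest adjusted p 0.972) and 0 had an unadjusted p under 0.05, against 4.19% of all genes (1.67% higher and 2.52% lower). DESeq2 called 7 of the 12427 genes tested, none of them a member, and limma-voom 0 members. The groups did not overlap in 9 members. In 8 of them the S400D/WT males were higher, against 4.98% of all genes, and in Mrps31 they were lower, against 4.92%. In TPM 2 members were higher without overlap, against 4.30% of all genes, and 0 lower, against 2.95%. With library size alone the medians were 0.11 and 0.16 with 5 and 3 negative genes, and on log2(FPKM + 1) they were 0.10 and 0.13. Without S400D/WT male 1 the medians were 0.01 (large) and 0.04 (small). Without WT/WT male 3 the large subunit median was 0.01 with 23 negative genes, and without WT/WT male 1 it was 0.06 with 10. Without S400D/WT male 2 the medians were 0.05 and 0.07. These values use the same WT/WT males as the comparison above.

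Mrpl49 had the smallest p in heterozygotes, with 34.3, 32.0 and 32.3 CPM in S400D/WT males and 31.6, 29.8 and 26.0 CPM in WT/WT males. The groups did not overlap, by a small margin, and the fold change was 0.17 (SE 0.11, adjusted p = 0.972). Mrpl40, another protein of the central protuberance, averaged 15.7 ± 1.51 and 13.5 ± 0.631 CPM (SD, n = 3 each; 0.21), and Mrps11 14.6 ± 1.42 and 12.7 ± 0.792 CPM (0.20), both without overlap. Overlap was seen for Mrpl4 (0.13), Mrps17 (0.13), Mrps2 (0.14), Mrps33 (0.12) and Mrpl30, which had the lowest fold change, -0.13.

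Set against the heterozygotes, S400D/S400D males again had the lower values. Of the members, 44 of 49 large and 28 of 29 small subunit genes were negative, with medians of -0.20 and -0.23, against 49.6% of all genes and a median of 0.00. Again 0 members passed in edgeR, where the lowest adjusted p of a member was 0.109 (Mrpl55) and 0% of all genes passed. At an unadjusted p under 0.05 there were 33 lower members, against 8.92% of all genes, and 1 higher, Mrpl34, against 8.25%. In 39 members the S400D/S400D males lay below all S400D/WT males, against 11.7% of all genes, and in 0 above all, against 10.6%. DESeq2 called 544 of the 12427 genes tested and 5 of the 78 members, all 5 lower in S400D/S400D males. They were Mrpl55 (adjusted p = 0.0158), Mrpl27 (0.0235), Mrps16 (0.0327), Mrps15 (0.0380) and Mrpl51 (0.0414). With limma-voom 0 members were called. With the length trend removed the medians were -0.07 (large) and -0.13 (small), and on log2(TPM + 1) they were -0.07 and -0.09, where the median of all genes was 0.11. In TPM 7 members lay below all S400D/WT males, against 4.75% of all genes, and 2 above, against 18.8%. Without S400D/WT male 2, whose clock stood apart from that of the other heterozygotes, the edgeR medians were -0.22 and -0.24.

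The genes with the smallest p in this comparison had all been named against WT/WT. Mrpl55 averaged 14.2 ± 0.365 CPM in S400D/S400D and 19.8 ± 1.66 CPM in S400D/WT males (SD, n = 3 each), a fold change of -0.47 (SE 0.10). Mrps15 averaged 13.8 ± 0.928 and 19.3 ± 1.03 CPM, with -0.48 (SE 0.12). Mrpl51 averaged 35.0 ± 0.878 and 45.9 ± 4.58 CPM, with -0.39 (SE 0.10). In all 3 the groups did not overlap, as in Mrpl27 (-0.43), Mrpl48 (-0.39), Mrps16 (-0.38), Mrps27 (-0.36) and Mrps10 (-0.32).

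The S400D/S400D female, a single animal, lay with neither group of males. In 38 of the 78 members it lay below all WT/WT males, in 20 above them and in 20 within their range. Against the S400D/S400D males it was above all 3 in 38 members, below in 10 and within in 30. These counts were not taken over all genes, so they cannot be read as particular to the members. The female was below the WT/WT mean in 67.3% of large and 58.6% of small subunit genes, against 48.1% of all genes tested. For Mrps21 and Mrps28 it lay within the range of the S400D/S400D males, and for Mrpl55, Mrpl48 and Mrps16 within or above that of the WT/WT males. Sex and genotype cannot be told apart here, as there was no other female.

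The remaining proteins of the mitochondrial ribosome, which carry other symbols, were all lower on the CPM scale. In S400D/S400D against WT/WT males 5 of 5 were negative, where 49.3% of all genes were. Their median was -0.20, with 0 past an adjusted p of 0.05 in edgeR. In TPM, Aurkaip1 was lower without overlap between these groups, while Chchd1, Ptcd3, Gadd45gip1 and Dap3 overlapped. Aurkaip1, a small subunit protein, had 39.0, 37.1 and 35.6 CPM in S400D/S400D males, 44.5 CPM in the female, 56.5, 46.8 and 49.5 CPM in S400D/WT males and 47.6, 51.4 and 49.3 CPM in WT/WT males. The S400D/S400D animals were the lowest, and the fold change was -0.41 (SE 0.09, adjusted p = 0.156); DESeq2 called it. Dap3, a GTP-binding protein of the small subunit, averaged 31.1 ± 3.78 CPM in S400D/S400D and 36.5 ± 2.08 CPM in WT/WT males, a fold change of -0.23. It was 0.06 when only curated transcripts were counted.

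Other genes of mitochondrial gene expression had medians nearer to 0. Of 15 translation factors 9 were negative (median -0.05), and of 26 assembly and rRNA modification genes 14 (-0.02). Of 22 aminoacyl-tRNA synthetases and related enzymes (Qrsl1, Gatb and Gatc) 11 were negative (0.00). Of 10 genes for the transcription and replication of mitochondrial DNA 4 were negative (0.16). Each list had 0 past an adjusted p of 0.05 in edgeR. At an unadjusted p under 0.05 there were 2, 3, 2 and 1, against 14.9% of all genes. Mtif2, the initiation factor, averaged 31.0 ± 1.34 CPM in S400D/S400D and 36.8 ± 2.09 CPM in WT/WT males (-0.25), and Slirp, which stabilises mitochondrial mRNA, 11.2 ± 1.41 and 14.0 ± 0.270 CPM (-0.33). Among assembly genes, Ybey averaged 2.58 ± 0.160 and 3.99 ± 0.577 CPM (-0.63) and Malsu1 14.1 ± 0.102 and 16.9 ± 1.03 CPM (-0.26). Of the synthetases, Fars2 averaged 26.3 ± 1.70 and 33.3 ± 2.66 CPM (-0.35) and Gars 36.8 ± 1.34 and 41.9 ± 1.83 CPM (-0.19). On the higher side were Polg, the polymerase of mitochondrial DNA, at 63.6 ± 14.5 and 50.1 ± 0.913 CPM (0.34), and Tfam, which packages that DNA, at 41.6 ± 1.04 and 36.5 ± 3.40 CPM (0.18). With library size alone the medians of the translation factors and of the assembly genes were positive (0.01 and 0.04), as on log2(TPM + 1) (0.12 and 0.13).

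The nuclear subunits of oxidative phosphorylation assemble with the proteins that the mitochondrial ribosome makes. Of the 79 tested, 75 were negative with a median of -0.22, and their median length was 427 bases. Over all genes of the shortest length class, 67 to 1397 bases, 68.5% were negative with a median of -0.12. Omitting 1 male at a time gave medians of -0.30 to -0.14. Library by library, their median log2 deviation from the WT/WT mean was -0.37, -0.24 and -0.08 in S400D/S400D males. It was 0.00, -0.15 and -0.02 in S400D/WT males and -0.05, -0.01 and 0.06 in WT/WT males. Summed TPM overlapped, at 31100, 35240 and 36640 in S400D/S400D and 36580, 32170 and 38250 in WT/WT males. The cytosolic ribosomal proteins, with a median length of 452 bases, had 58 of 81 negative and a median of -0.06, which was 0.11 with the length trend removed and 0.10 on log2(TPM + 1). Each list had 0 genes past an adjusted p of 0.05 in edgeR. At an unadjusted p under 0.05 there were 23 (29.1%) and 1 (1.23%), all of them lower, against 8.08% of all genes.

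Regulators of nuclear genes for mitochondria went apart. Of 10, 5 were negative with a median of -0.05. Ppargc1b, a coactivator, had 10.6, 13.9 and 6.59 CPM in S400D/S400D males, 20.7 CPM in the female, 18.1, 15.5 and 19.7 CPM in S400D/WT males and 20.3, 16.2 and 30.4 CPM in WT/WT males. The S400D/S400D males were lowest, with a fold change of -1.11 (SE 0.29, adjusted p = 0.206); DESeq2 called it. Its relative Ppargc1a had 17.2, 14.0 and 18.9 CPM in S400D/S400D males, 10.3 CPM in the female, 4.74, 8.67 and 7.48 CPM in S400D/WT males and 12.7, 12.0 and 9.58 CPM in WT/WT males. Here the S400D/S400D males were highest and the heterozygotes lowest, with 0.54 (SE 0.22, adjusted p = 0.302) for S400D/S400D against WT/WT, and -0.05 with the clock index as a covariate.

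Markers of other liver cells were compared beside the members. Summed Kupffer cell markers (10 of 10 tested) reached 474 to 500 CPM in S400D/S400D males, 492 in the female, 224 to 508 in S400D/WT males and 172 to 542 in WT/WT males. Sinusoidal endothelial markers (8 of 8) reached 245 to 250, 191, 160 to 231 and 107 to 258 CPM in these groups, and stellate markers (8 of 8) 254 to 441, 311, 228 to 352 and 112 to 286 CPM. Erythroid markers (5 of 5) were at 261 to 292, 303, 219 to 1720 and 162 to 1960 CPM, and cholangiocyte markers (5 of 5) at 24.9 to 44.2, 32.5, 35.5 to 38.9 and 37.9 to 45.8 CPM. Lymphocyte markers (3 of 6) summed to 1.45 to 3.60, 1.65, 2.81 to 3.35 and 0.983 to 3.30 CPM, and neutrophil markers (2 of 4) to 1.51 to 2.09, 1.65, 0.561 to 2.34 and 1.79 to 3.17 CPM. The summed levels of S400D/S400D and WT/WT males overlapped in each of these lists, but the signs of single markers did not divide evenly. Against WT/WT males, 10 of 10 Kupffer cell (median log2 fold change 0.64), 8 of 8 sinusoidal endothelial (0.59) and 7 of 8 stellate markers (0.81) were positive. In edgeR 1, 2 and 4 of them were higher at an unadjusted p under 0.05, against 6.82% of all genes. Past an adjusted p of 0.05 there were 0. Markers of a list share their libraries and are not independent. Clec4f, of Kupffer cells, overlapped, at 96.8, 104 and 104 CPM in S400D/S400D and 112, 50.4 and 40.0 CPM in WT/WT males. Lyve1, an endothelial marker, averaged 14.9 ± 8.45 CPM in S400D/S400D and 3.77 ± 1.07 CPM in WT/WT males (1.97, adjusted p = 0.147). Marco, of Kupffer cells, averaged 14.0 ± 7.66 and 3.23 ± 2.37 CPM (2.10, adjusted p = 0.214), and Dcn, of stellate cells, 178 ± 19.0 and 81.3 ± 37.7 CPM (1.13, adjusted p = 0.209). These 3 genes, named after their values were seen, did not overlap between the groups, where 9.74% of all genes were higher without overlap. All 5 erythroid markers were negative (median -1.54). The summed hepatocyte markers of S400D/S400D males lay above those of all other males through Alb, at 95700 ± 9680 CPM in S400D/S400D and 74400 ± 5360 CPM in WT/WT males. Without Alb the sums overlapped, at 46600, 38800 and 42700 CPM in S400D/S400D males and 36600, 43700 and 40400 CPM in WT/WT males, and 4 of the 10 markers were negative. No marker was at 0 in every library, and the part of these cells in the results was not tested.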

How the data were processed

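Liver RNA of 10 mice was sequenced after purification of mRNA on oligo(dT) beads, per the labels' protocols. The authors deposited expected counts (not rounded), FPKM and TPM for 77712 transcripts in each sample. The deposited FPKM values are scaled to transcript length and library total, and the deposited TPM values to a fixed sum per sample. HISAT, Bowtie2 and GRCm38.p6 are named in the submitters' processing notes; no source used here names the counting program or its use of strand.

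Transcripts were summed to 19271 genes by gene ID, and expected counts were rounded; 94.5% of nonzero gene sums lay within 0.05 of a whole number. Reads of 6 members (Mrpl22, Mrpl40, Mrps10, Mrps18b, Mrps23 and Mrps35) were divided over further copies of a transcript, whose parts were summed. The 9 males were fitted together by genotype with edgeR 4.0.16 (R 4.3.3; quasi-likelihood test, TMM factors, filterByExpr with a minimum count of 10, Benjamini-Hochberg adjustment over 12427 genes, threshold 0.05), leaving 6 residual degrees of freedom. The script was tested on simulated counts. The female entered no test. Fold changes are log2, positive where the first-named group is higher, with their standard errors (SE). Levels are CPM scaled by TMM, given as mean ± SD of 3 animals, or summed TPM where genes are compared with each other. Lengths are effective lengths from deposited counts and FPKM.

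Alternatives were DESeq2 1.42.0, limma-voom (limma 3.58.1), DESeq2's size factors, library size alone, other filters (none; at least 1 CPM in 3 samples), a replicate block, other samples in the fit, curated transcripts only, limma on log2(FPKM + 1), log2(FPKM + 0.1) and, added after seeing the data, log2(TPM + 1), a length trend removed by lowess (span 0.5), the clock index as a covariate, and omission of each male. Named were the 10 large and 8 small subunit genes with the smallest p in S400D/S400D against WT/WT, up to 3 positive genes per subunit, 4 per subunit in the other comparisons, the 3 highest and lowest by TPM, the Mrps18 paralogues, Mrpl12, Mrps36, Mrpl58, Htra2 and 2 genes per further list. The members and lists were chosen with earlier results of these data known.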

Additional observations from a re-analysis of the deposited data

How the results depend on the processing

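On log2(TPM + 1), an alternative chosen after seeing the data, the medians of both subunits in S400D/S400D against WT/WT males were 0.00; in the other alternatives and comparisons no median of either subunit changed sign. In all of them 0 members were called in each comparison except by DESeq2. It called 5 of the 78 in S400D/S400D against S400D/WT males, where its calls over all genes are given above. Of 216 recomputed main values 188 stayed within the spread of the animals or within 1.5 times the count, 28 moved and 0 reversed; of 1534 further ones 19 reversed. The cause was not tested in any of them.

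In S400D/S400D against WT/WT males the medians (large, small) were -0.11 and -0.11 with library size alone, -0.10 and -0.11 on log2(FPKM + 1), -0.11 and -0.11 on log2(FPKM + 0.1), -0.05 and -0.04 with the length trend removed, and -0.09 and -0.12 with the clock index. Omitting 1 male at a time gave -0.19 to -0.10 and -0.18 to -0.15. In S400D/S400D against S400D/WT males the medians were -0.07 and -0.13 with the length trend removed and -0.07 and -0.09 on log2(TPM + 1), the small subunit stood at -0.18 with the clock index, and omissions gave -0.22 to -0.18 and -0.24 to -0.18. In S400D/WT against WT/WT males the medians were 0.11 and 0.16 with library size alone, 0.10 and 0.13 on log2(FPKM + 1) and 0.10 and 0.14 on log2(FPKM + 0.1), and omissions gave 0.01 to 0.06 and 0.04 to 0.09. Negative members in that comparison then numbered 5 (large) and 3 (small) with library size alone and 5 and 5 on FPKM. The median of all genes stood at 0.06 to 0.09 in these fits of library size and at 0.04 to 0.07 in those of FPKM for the comparisons with WT/WT, and at 0.14 (S400D/S400D against WT/WT), 0.03 and 0.11 (S400D/S400D against S400D/WT) in that of TPM.

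Reversed values in S400D/S400D against WT/WT males were Dap3 at 0.06 with curated transcripts, Mrpl3 at -0.03 and Ppargc1a at -0.05 with the clock index, and, as males were omitted in turn, Mrpl3 at -0.01 and Mrps23 at -0.01 (without S400D/S400D male 1) to 0.17. The cytosolic ribosomal protein median was 0.11 with the length trend removed and 0.10 on log2(TPM + 1). Translation factors stood at 0.01 with library size alone, on log2(FPKM + 1) and on log2(FPKM + 0.1), at 0.12 on log2(TPM + 1) and at 0.05 with the clock index. Assembly genes stood at 0.04 in those first 3 fits, at 0.13 on log2(TPM + 1), at 0.03 with the length trend removed, at 0.08 with the clock index and between -0.06 and 0.01 as males were omitted in turn, the last without S400D/S400D male 3.

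Correlations of the deviations of same-numbered animals of different genotypes ran from -0.44 to 0.20. Those of differently numbered animals ran from -0.35 to 0.45. A shared litter or batch was not tested. With the replicate number as a block the medians were -0.16 and -0.17, -0.20 and -0.23, and 0.03 and 0.08 in the 3 comparisons, with 0 members called.

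The lack of strand information limits the values of the 28 members whose exons overlap a gene on the other strand, and the 6 members with divided copies depend on how the reads were shared out.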
